A study of Simmondsia chinensis with 44 samples.

Results

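The comparison described here sets 5 libraries of whole seed against 5 libraries of cotyledon, both from mid-stage developing seeds of jojoba (Simmondsia chinensis). These 10 libraries were chosen by their labels from the 44 libraries of the series, and the comparison covers all genes of the count table. All were prepared from the same germplasm accession, PARL# 940, with no treatment named, and the age of the seeds is given as the mid stage and in no other way. The other libraries used are the 5 of embryonic axis and the 5 of seed coat dissected at the same stage, and a separate time course that samples early, mid, late and dry seed in 6 libraries per stage. Nothing in the labels tells whether the libraries of a group came from separate plants, seeds or pools. The p-values therefore reflect library-to-library spread, part or all of which may be technical. Nor do the labels say whether whole seed held tissue beyond the 3 dissected parts.

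A seed is an embryo enclosed by tissue of the mother plant. The embryo of a dicot is made of cotyledons, the seed leaves that in jojoba fill with liquid wax esters and protein, and of the axis, which holds the future root and shoot. The seed coat grows from the outer layers of the ovule, is maternal in genotype, and protects the embryo and passes nutrients toward it. Whole seed against cotyledon therefore asks what changes in the transcript profile when the coat and axis are left on. In such bulk samples a larger number of cells of a type and more RNA per cell cannot be told apart.

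The files give genes by identifier and do not pair identifiers with names or functions. For that reason no function is given for any gene, few identifiers are printed, and gene groups are described by the dissected tissue in which they were high. Total counts were 14184714 to 24116766 per whole-seed library and 9882334 to 22827875 per cotyledon library. Levels are in CPM, the count scaled to a library total that was adjusted by TMM, a method that sets most genes level between libraries. They are not corrected for gene length, so levels of different genes are not compared.

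Whole-seed libraries formed a tight group, and cotyledon libraries were spread out toward it. On log2(CPM + 0.5) values, pairs of whole-seed libraries correlated across genes at Pearson's r of 0.969 to 0.979, and pairs of cotyledon libraries at 0.913 to 0.979. Genes are not independent replicates, so these values only describe the libraries. Cotyledon library 1 had r of 0.943 to 0.957 with the whole-seed libraries, library 5 had 0.929 to 0.937 and library 2 had 0.913 to 0.936. Libraries 3 and 4 had 0.905 to 0.928 and 0.882 to 0.909. By r alone library 5 overlapped library 2. On the first principal component, where whole seed had the values 17.2 to 38.4, cotyledon library 5 was at -12.4 and library 1 at -31.5, while libraries 2, 3 and 4 lay at -53.0, -64.5 and -83.0. The distances are graded, and results that rest on libraries 1 and 5 are given with and without them. Leaving out the libraries nearest to whole seed favours larger differences over genes as a whole, so such a gain is no result in itself.

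**Figure D1:**
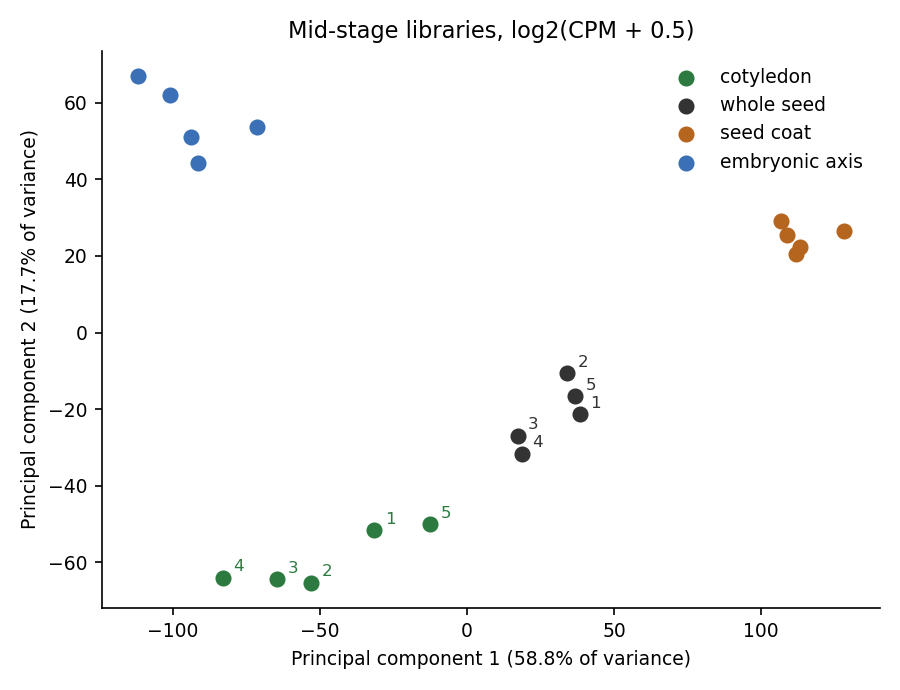
Each point is a mid-stage library placed by its first and second principal components (58.8% and 17.7% of the variance of log2(CPM + 0.5)), coloured by tissue, with replicate numbers for cotyledon and whole seed. Whole seed lies between cotyledon and seed coat on the first component, and cotyledon libraries 1 and 5 lie nearest to it among the cotyledon libraries.

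Whole seed and cotyledon differed in many genes, in nearly even numbers in each direction, and which direction held more turned with the processing. The larger differences were more often toward higher levels in whole seed. Of 18499 genes tested, 6136 (33.2%) passed edgeR's quasi-likelihood test at a Benjamini-Hochberg adjusted p under 0.05, with 3012 (16.3%) higher and 3124 (16.9%) lower in whole seed. At 2-fold or more, 1242 genes (6.71%) were higher and 908 (4.91%) lower. At 8-fold or more, 191 were higher and 22 lower, and at 16-fold or more, 95 were higher and 5 lower. The ratio of higher to lower genes thus grew with the size of the difference, while both numbers fell. The median log2 difference of all genes tested was -0.03, with quartiles of -0.41 and 0.37. Every whole-seed library lay above every cotyledon library in 2055 genes (11.1%) and below every one in 1532 (8.28%), and 1931 and 1401 of these passed the test. Without cotyledon libraries 1 and 5, 8329 genes passed, 4032 higher and 4297 lower, and 2038 and 1516 did so at 2-fold or more. Libraries 1 and 5 lay nearest to whole seed on the first component, so leaving them out favours larger differences and more calls. Of the 8329 genes, 5735 were called with all libraries too. All 5735 had the same direction, which the libraries shared by both fits made nearly certain.

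Genes without a count in cotyledon were few. Of the 3012 genes higher in whole seed, 16 had no count in any cotyledon library, and none of the genes lower in whole seed lacked counts in all whole-seed libraries. Those 16 genes had low levels, with means in whole seed of 0.0768 to 4.65 CPM and a median of 0.271 CPM. The dissected part with the highest mean level was the axis for 9 of them and the seed coat for 7. Among all genes tested it was the axis in 35.0% and the coat in 38.4%. Without a cotyledon count only the axis or coat could rank highest. The least counted of the 16 could pass the filter on counts only through those parts. The split is therefore no result about these genes.

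Sc05g0005510 and Sc09g0009050 were the genes with the largest rise under a rule that asked for an adjusted p under 0.05, no overlap of libraries, a mean of 10 CPM or more where the gene was higher and a pooled count of 10 or more where it was lower. Sc05g0005510 stood at 609, 403, 487, 515 and 598 CPM in whole-seed libraries 1 to 5. In cotyledon libraries 1 to 5 it stood at 0.184, 0.440, 1.52, 1.31 and 2.03 CPM. All whole-seed libraries were thus far above all cotyledon libraries, a log2 difference of 8.88 ± 0.53 (SE; edgeR adjusted p = 8.68e-11). The gene stood at 1131 ± 184 CPM in seed coat and 1.69 ± 1.40 CPM in axis (SD, n = 5), so its whole-seed mean was 46.2% of its coat mean.

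Sc09g0009050 had the same distribution at higher counts. Its whole-seed levels were 6575, 4477, 3698, 4912 and 5118 CPM in libraries 1 to 5. Its cotyledon levels were 2.02, 3.08, 23.2, 27.2 and 13.9 CPM. Cotyledon libraries 1 and 2 were low and 3 and 4 high, and none approached whole seed. The log2 difference was 8.48 ± 0.64 (SE; edgeR adjusted p = 4.15e-09), and the whole-seed mean was 46.3% of the coat mean of 10708 ± 2136 CPM (SD, n = 5).

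Among genes lower in whole seed, the same rule gave Sc02g0004830 and Sc13g0004140. Sc02g0004830 stood at 26.0, 34.4, 16.8, 19.0 and 17.7 CPM in cotyledon libraries 1 to 5. In whole-seed libraries 1 to 5 it stood at 0.297, 0.152, 0.249, 3.38 and 0.682 CPM, so library 4 was high among low values and the groups did not overlap. The log2 difference was -4.67 ± 0.58 (SE; edgeR adjusted p = 6.47e-06), and -5.98 without whole-seed library 4. The gene had 1 count in the 5 seed coat libraries together and 2.02 ± 0.64 CPM in axis (SD, n = 5). Its whole-seed mean was 4.18% of its cotyledon mean.

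Sc13g0004140 was variable within cotyledon. It stood at 45.3, 16.6, 10.3, 8.57 and 49.1 CPM in cotyledon libraries 1 to 5, high in libraries 1 and 5 and low in 3 and 4. In whole seed it stood at 1.25, 0.354, 1.25, 2.25 and 0.882 CPM, below every cotyledon library. The log2 difference was -4.48 ± 0.80 (SE; edgeR adjusted p = 2.95e-04), and -3.33 without cotyledon libraries 1 and 5. Axis held 22.1 ± 21.4 CPM and coat 0.850 ± 1.012 CPM (SD, n = 5).

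**Figure D2:**
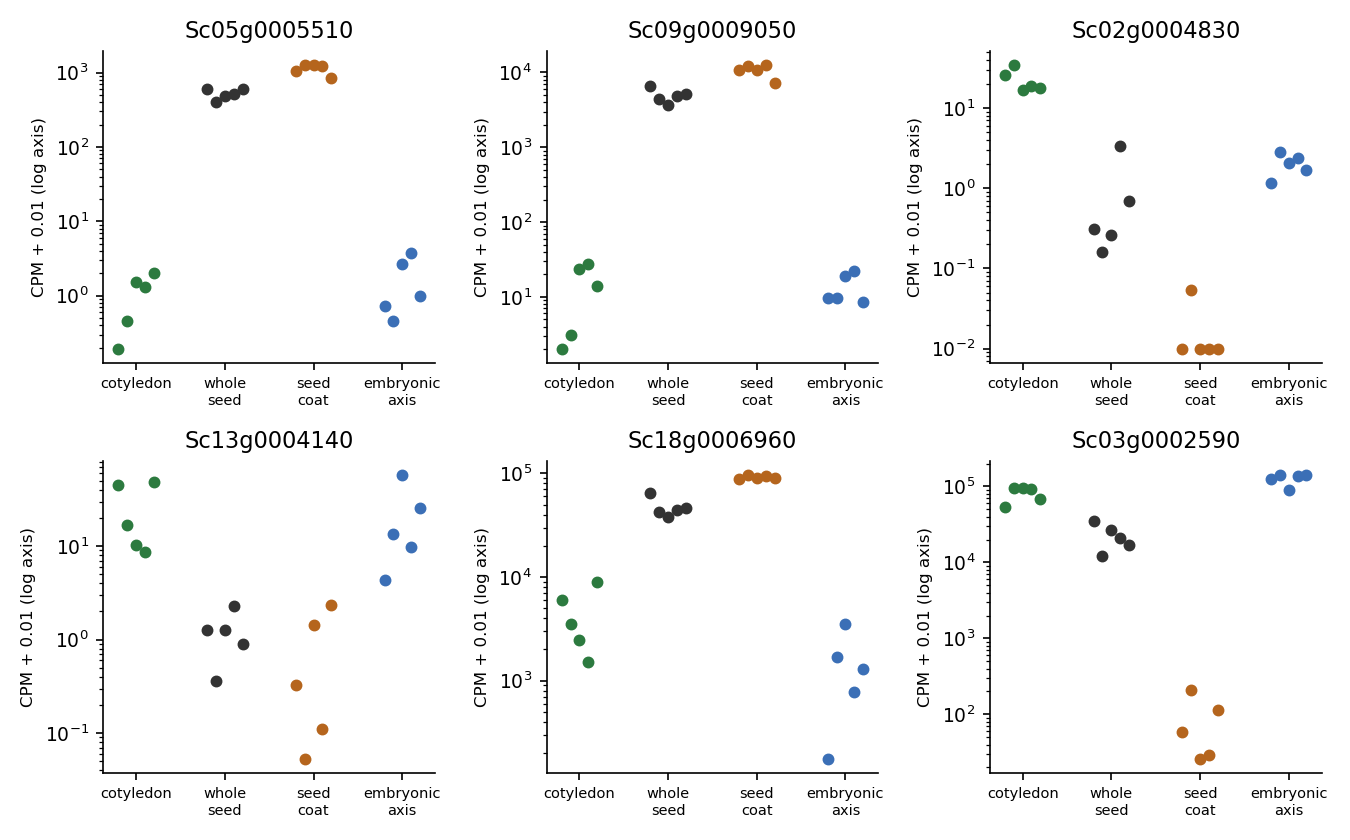
Each panel shows 1 gene, with its level in CPM plus 0.01 on a log axis for each library of the 4 tissues (5 points per tissue, replicates 1 to 5 from left to right). Whole seed lies near seed coat for Sc05g0005510, Sc09g0009050 and Sc18g0006960, and below every cotyledon library for Sc02g0004830, Sc13g0004140 and Sc03g0002590.

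The most counted gene changed between the groups. In whole seed it was Sc18g0006960, with 6.28%, 4.93%, 3.86%, 4.42% and 4.82% of counts in libraries 1 to 5. In cotyledon libraries 1 to 5 this gene took 0.593%, 0.295%, 0.198%, 0.117% and 0.892%, highest in libraries 5 and 1. The groups did not overlap, and the log2 difference was 3.40 ± 0.57 (SE; edgeR adjusted p = 1.70e-04), or 4.24 without cotyledon libraries 1 and 5.

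In cotyledon the most counted gene was Sc03g0002590, with 5.40%, 8.09%, 7.51%, 7.003% and 6.94% of counts in libraries 1 to 5. It remained abundant in whole seed, at 3.39%, 1.41%, 2.69%, 2.07% and 1.75%. Every whole-seed library was below every cotyledon library (log2 difference -1.86 ± 0.48, SE; edgeR adjusted p = 0.00498). Its level was 127708 ± 21385 CPM in axis and 87.2 ± 76.2 CPM in seed coat (SD, n = 5), so it was high in both embryo parts.

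The most counted genes took a smaller share of the counts in whole seed than in cotyledon. Taking the 100 genes with most counts in each library, their share was 24.3% to 32.3% in whole seed, median 29.0%, and 31.8% to 40.4% in cotyledon, median 38.3%. Whole-seed library 1 overlapped the cotyledon range. The difference of means was -8.22 percentage points (exact permutation test, two-sided, p = 0.0159, adjusted p = 0.0238 over 2 library measures). For the count of genes detected, CPM was scaled to the library total without the TMM adjustment. On that scale, genes detected at 1 CPM numbered 16618 ± 203 in whole seed and 16261 ± 208 in cotyledon (SD, n = 5). The 357 genes between these means gave p = 0.0238 and adjusted p = 0.0238 in the same exact test. The TMM factor that multiplies a library total was 0.767 to 1.01 in cotyledon and 0.970 to 1.16 in whole seed. A lower factor makes 1 unadjusted CPM a stricter limit on the adjusted scale. The part this played in the difference was not tested. The smallest p that 5 libraries against 5 can give is 0.00794. The second call was lost at adjusted p = 0.0556 without cotyledon library 2, 3, 4 or 5, differences then being 351, 317, 313 and 363 genes.

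The share of genes called lower grew with abundance. In the class with a mean log2(CPM + 0.5) above 8, 167 of 421 genes (39.7%) were lower in whole seed and 78 (18.5%) higher. In the class between 2 and 4, 615 of 4826 genes (12.7%) were lower and 17.2% higher. In the class at or below 0, 24 of 914 (2.63%) were lower and 94 (10.3%) higher. Low genes have fewer counts behind each value, and the part this played in the shares was not tested.

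Genes were then sorted by the comparison of seed coat with embryonic axis, in which 64.5% of genes passed. It shares no library with whole seed against cotyledon. Whole seed includes the coat and cotyledon does not, so higher levels of coat-over-axis genes in whole seed are built into the design. This sort cannot place a gene in the cotyledon. At 4-fold or more and an adjusted p under 0.05 in edgeR, 1381 genes (7.47% of those tested) were coat-over-axis and 1961 (10.6%) axis-over-coat. The lists were chosen with earlier results of these data known, so they are described by counts, medians and shares, with no test of a list.

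Coat-over-axis genes were mostly higher in whole seed than in cotyledon. Of the 1381, 805 were called higher (58.3%, against 16.3% of all genes tested), 3 were called lower (0.217%, against 16.9%) and 573 were not called. At 2-fold or more, 711 were higher. Their median log2 difference was 1.23, with quartiles of 0.73 and 2.03, where that of all genes was -0.03. They made up 26.7% of all genes higher in whole seed. Without cotyledon libraries 1 and 5 the median was 1.85, and 1061 members of the list made from that fit were higher, or 74.0% of 1434, where 21.3% of all genes tested in that fit were higher. The 3 genes called lower, chosen after their values were seen, were Sc01g0003550, Sc02g0001620 and Sc16g0005540. They had log2 differences of -1.09, -1.60 and -1.39 and low levels, the highest mean being 11.1 CPM, for Sc01g0003550 in cotyledon. In lists made anew from each fit, none was called lower without whole-seed library 1, 2 or 5. Only 1 was without whole-seed library 4 or cotyledon library 2, 3 or 4, 6 were without cotyledon library 5 and 9 without cotyledon libraries 1 and 5.

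Axis-over-coat genes were more often lower. Of the 1961, 753 were called lower (38.4%, against 16.9% of all genes), 43 higher (2.19%, against 16.3%) and 1165 were not called. Their median log2 difference was -0.86, with quartiles of -1.33 and -0.31, and -1.06 without cotyledon libraries 1 and 5. The 43 that went the other way all had their highest mean among dissected parts in the axis. The medians of their mean levels were 0.280 CPM in cotyledon, 1.61 in whole seed, 16.4 in axis and 0.624 in coat, and all 43 were lower in whole seed than in axis. Without cotyledon library 4, 66 members of the list made from that fit were called higher, where 2463 of all genes were. The size of that list is not given here.

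**Figure D3:**
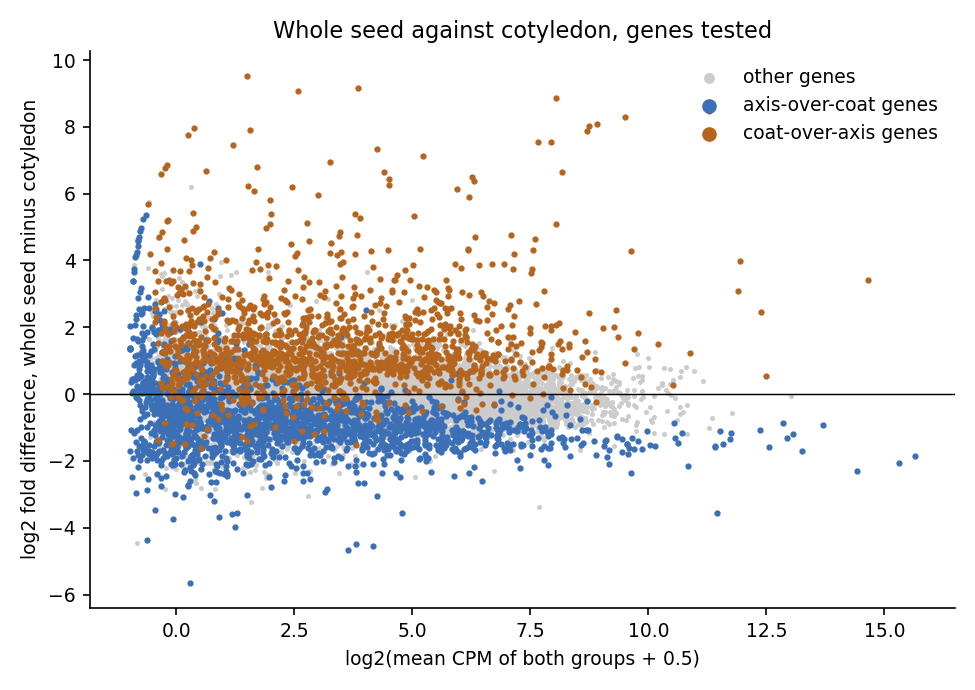
Each point is 1 of the 18499 genes tested, with its mean level in both groups on the x axis (log2 of CPM + 0.5) and its log2 fold difference, whole seed minus cotyledon, on the y axis. Coat-over-axis genes lie mostly above 0 (median 1.23) and axis-over-coat genes mostly below (median -0.86).

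The same held without the 4-fold limit. Of the 3012 genes higher in whole seed, 2401 (79.7%) were called higher in coat than in axis, against 31.5% of all genes, and 142 (4.71%) were called higher in axis, against 33% of all genes. Those 2401 were 41.2% of all genes higher in coat. Of the 3124 genes lower in whole seed, 2150 (68.8%) were higher in axis and 213 (6.82%) higher in coat, and the 2150 were 35.2% of all genes higher in axis. By mean level alone, the dissected part highest for genes higher in whole seed was the coat in 90.6% and the axis in 9.43%, against 38.4% and 35.0% of all genes. For genes lower in whole seed it was the cotyledon in 65.9%, against 26.7% of all genes, and the coat in 0.384%. It was the axis in 33.7%, close to the 35.0% of all genes. The cotyledon libraries enter both sides of this last ranking, so it is a description.

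Summed over the list, coat-over-axis genes took 13.7% to 19.6% of counts in whole-seed libraries (19.6%, 17.1%, 13.7%, 15.8% and 18.1% in libraries 1 to 5). In cotyledon libraries 1 to 5 they took 5.53%, 3.05%, 2.47%, 1.87% and 6.83%, so libraries 1 and 5 were high. Seed coat libraries held 28.7% to 30.5% and axis libraries 1.01% to 3.67%. Whole seed thus lay between cotyledon and coat with no overlap on either side. Axis-over-coat genes took 9.07% to 16.2% in whole seed, 26.9% to 37.9% in cotyledon, 30.2% to 38.1% in axis and 0.748% to 0.884% in coat. Cotyledon libraries 1 and 5 had the lowest shares of these, 26.9% and 28.0%. Their part in the differences was not tested. As their shares were nearest to whole seed, leaving them out had to widen each mean difference between whole seed and cotyledon. It went from 12.9 to 14.4 percentage points for coat-over-axis genes and from -19.8 to -23.5 for axis-over-coat genes.

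**Figure D4:**
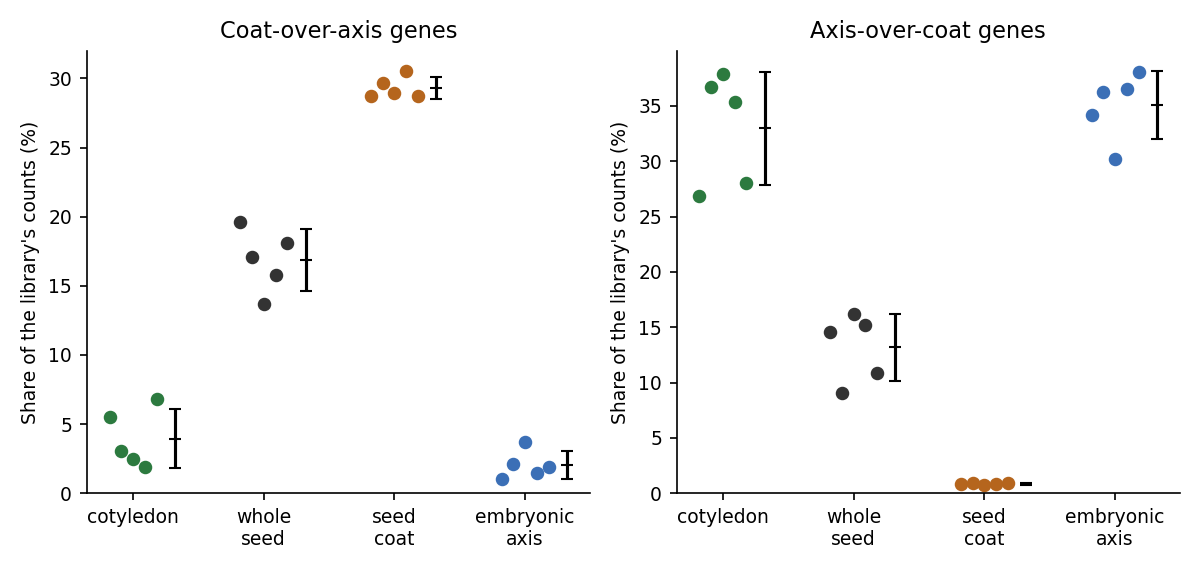
Points are libraries, with the share of their counts on coat-over-axis genes (left) and axis-over-coat genes (right) in percent. Black marks are the mean and SD of 5 libraries. Whole seed lies between cotyledon and coat in both panels.

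Coat-over-axis genes stood at uneven levels in cotyledon. Each coat-over-axis gene was set against its own coat mean, library by library, and the coat libraries had also chosen the genes. The median gene stood at 34.9%, 22.6%, 19.5%, 12.4% and 36.1% of its coat level in cotyledon libraries 1 to 5, and at 58.8% to 72.8% in the whole-seed libraries. In cotyledon libraries 1 and 5, where the median gene was above 30%, Sc18g0006960 stood at 6.46% and 9.65% of its coat level, and Sc05g0005510 at 0.0162% and 0.180%. Sc09g0009050 was at 0.0189% in library 1 and at 0.254% in library 4, so its order among cotyledon libraries was not that of Sc18g0006960, which was lowest in library 4. Sc05g0005510 and Sc09g0009050 were named for a large rise over these same cotyledon libraries, so low percentages follow from that choice. Sc05g0005510 had only 3 counts in cotyledon library 1 and 36 in library 5. Why the order of libraries differed between genes was not tested.

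Whole seed was also set against a dissected part over the genes preferred in that part. The part's own libraries both chose these genes and form the divisor, so the percentages are a description that depends on the fold limit. Coat-preferred genes, at least 4-fold above both cotyledon and axis, numbered 619. Their whole-seed mean was 59.6% of the coat mean at the median gene, with quartiles of 50.4% and 69.0%, and 67.9% with a 2-fold limit. By library the median was 66.9%, 58.4%, 49.8%, 56.1% and 62.2% in whole-seed libraries 1 to 5. In 2 genes whole seed was under 20% of coat, and in 11 it was above the coat mean.

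Cotyledon-preferred genes, at least 4-fold above both coat and axis, numbered 231. Their whole-seed mean was 41.5% of the cotyledon mean at the median gene, with quartiles of 31.3% and 52.5%, and 50.5% with a 2-fold limit. By library the median was 33.6%, 29.2%, 40.5%, 54.0% and 33.5%, so library 4 held most of these transcripts and library 2 least. The spread across genes was wide, from 4.18% to 137%. Whole seed was under 20% of cotyledon in 20 genes, Sc02g0004830 being the lowest, from 20% to 60% in 182, and over 60% in 29.

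Hardly any gene passed a strict rule for lying outside the range of the dissected parts in whole seed. A gene counted as outside when whole seed differed in the same direction from cotyledon, axis and coat, each at an adjusted p under 0.05 in edgeR, with no overlap of libraries. Of 18499 genes, 1 was above all parts (0.00541%) and 2 were below (0.0108%). Failing the rule does not place a gene inside the range. Of the 3012 genes higher in whole seed than in cotyledon, 158 had a whole-seed mean above the mean of every part. Of the 3124 lower, 384 had a mean below every part. Means outside all parts were not counted over all genes tested. With overlap of libraries allowed, the rule gave 1 gene above and 10 below.

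The gene above all parts was Sc20g0004780, which the 10 CPM minimum for naming left out and which is given after its values were seen. It stood at 8.97, 8.70, 7.73, 5.49 and 5.49 CPM in whole-seed libraries 1 to 5, against 3.72 ± 1.26 in cotyledon, 4.09 ± 1.14 in axis and 2.95 ± 1.16 in coat (SD, n = 5). Its smallest log2 difference was 0.83 ± 0.30 (SE), from axis (edgeR adjusted p = 0.0274). No gene was above all parts with DESeq2 size factors, with upper-quartile scaling, without whole-seed library 2, or without cotyledon libraries 1 and 5.

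The genes below all parts were Sc03g0010170 and Sc21g0003780, both with moderate differences. Sc03g0010170 stood at 16.9, 14.7, 14.4, 15.4 and 17.5 CPM in whole-seed libraries 1 to 5, against 26.9 ± 5.9 in cotyledon, 30.4 ± 4.9 in axis and 21.8 ± 1.3 in coat (SD, n = 5). It was nearest to coat, at a log2 difference of -0.47 ± 0.14 (SE; edgeR adjusted p = 0.0191). Sc21g0003780 stood at 12.8, 11.7, 8.93, 12.2 and 10.9 CPM in whole seed and was nearest to cotyledon, which held 15.9 ± 1.6 (log2 difference -0.49 ± 0.12, SE; edgeR adjusted p = 0.00446). The number below all parts was 4 without whole-seed library 1, without cotyledon library 5, and without cotyledon libraries 1 and 5, and 3 without whole-seed library 4 or cotyledon library 2. No gene lay 2-fold or more outside all parts.

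Genes that differed between whole seed and cotyledon were then followed in the time course, whose libraries are separate. Genes higher in whole seed fell more often than genes in general as seeds developed. Of 2955 measured there, 1260 (42.6%) fell from early to mid seed and 377 (12.8%) rose, against 23.6% and 26% of all 18440 genes tested by edgeR at an adjusted p under 0.05, of which 49.6% changed in either direction. From mid to late seed 1107 (37.5%) fell and 614 (20.8%) rose, against 29.8% and 27.3%, or 57.1% in either direction. From late to dry seed 1732 (58.6%) fell and 742 (25.1%) rose, against 43.3% and 36.8%, or 80.1% in either direction.

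Genes lower in whole seed rose more often than genes in general up to late seed. Of 3087 measured, 1644 (53.3%) rose from early to mid seed and 250 (8.10%) fell. From mid to late seed 1181 (38.3%) rose and 769 (24.9%) fell. From late to dry seed the shares were close to those of all genes, with 1214 (39.3%) rising and 1331 (43.1%) falling. The contrast from mid to late seed narrowed without cotyledon libraries 1 and 5: of the genes then higher in whole seed, 1298 (32.9%) fell and 984 (24.9%) rose, and of those then lower, 1411 (33.4%) rose and 1220 (28.9%) fell. From early to mid seed the same shares were 40.9% falling among higher genes and 51.5% rising among lower genes.

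**Figure D5:**
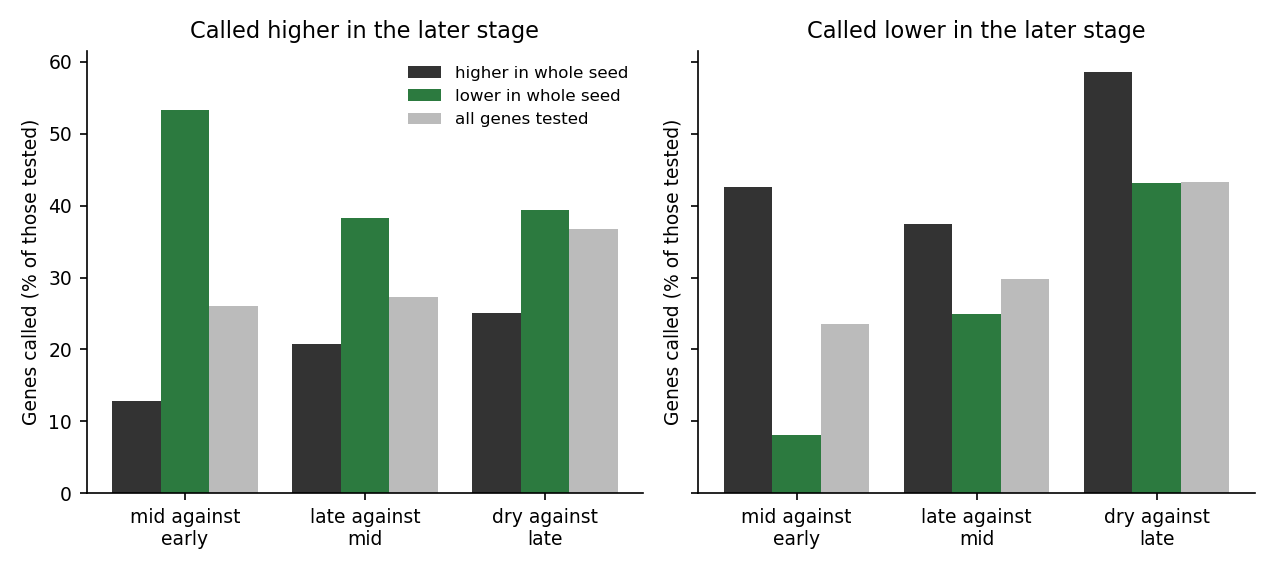
Bars give the percent of genes called higher (left) or lower (right) in the later of 2 neighbouring stages, for genes higher in whole seed than in cotyledon, genes lower, and all genes tested. From early to mid seed, 53.3% of genes lower in whole seed rose and 42.6% of genes higher in whole seed fell.

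The named genes were followed through the same stages, with levels set within the time course only. Sc05g0005510 stood at 80 to 299 CPM in early seed, 137 to 287 in mid seed and 70.3 to 116 in late seed. None of the 6 libraries of dry seed held a count of it. The difference between early and mid seed did not pass (edgeR adjusted p = 0.862), and late seed was below mid seed by a log2 difference of -1.04 ± 0.25 (SE; edgeR adjusted p = 0.00163). Sc09g0009050 went from 463 to 1700 CPM in early seed to 1246 to 2390 in mid seed, 319 to 543 in late seed and 0.555 to 2.49 in dry seed. Both genes that rose most in whole seed thus had almost no transcript in dry seed. Sc02g0004830 was at most 0.460 CPM in mid seed and 1.20 CPM in late seed of the time course. In dry seed it ranged from 0.978 to 43.3 CPM, with a median of 1.23, so a single library was high. Sc13g0004140 was at most 0.126 CPM in mid seed, 486 to 4499 in late seed and 3382 to 13090 in dry seed. Late seed was above mid seed in every library, with an edgeR adjusted p of 4.74e-13.

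The most counted genes moved in opposite directions up to late seed. Sc18g0006960, highest in coat, fell from 29333 to 51708 CPM in early seed to 15105 to 24385 in mid seed (log2 difference -0.91 ± 0.25, SE; edgeR adjusted p = 0.00534). It fell again to 4628 to 7221 CPM in late seed and had 0 counts in dry seed. Sc03g0002590, high in cotyledon and axis, rose from 9.06 to 97.4 CPM in early seed to 4343 to 8397 in mid seed (log2 difference 6.70 ± 0.60, SE; edgeR adjusted p = 2.57e-09). It rose further to 15126 to 65076 CPM in late seed and stood at 66.4 to 324 CPM in dry seed. No stages next to each other overlapped for either gene.

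Cotyledon-preferred genes were grouped by the whole-seed level as a percent of the cotyledon level, a grouping chosen after the data were seen and given with no test of the groups. The share of all genes that rose and fell was 26% and 23.6% from early to mid seed, 27.3% and 29.8% from mid to late seed, and 36.8% and 43.3% from late to dry seed. The median log2 changes of all genes were 0.02, -0.02 and -0.13.

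Among the 20 genes under 20%, 18 were measured in the time course. From early to mid seed 4 rose and 7 fell, with a median log2 change of -0.49. From mid to late seed 8 rose and 2 fell, with a median of 1.47, and from late to dry seed 9 rose and 4 fell, with a median of 1.15. The genes of this class differed widely, and the quartiles spanned 0 at each step, being -0.91 and 2.12 from mid to late seed.

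Of the 167 measured in the class from 20% to 60%, 108 rose and 22 fell from early to mid seed, with a median of 1.77. In that class 55 rose and 58 fell from mid to late seed, and 21 rose and 123 fell from late to dry seed, with medians of -0.01 and -3.62. Most genes of this class were thus higher in mid than in early seed and lower in dry than in late seed.

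Of the 27 measured in the class over 60%, 11 rose and 5 fell from early to mid seed, with a median of 0.65. From mid to late seed 4 rose and 14 fell, with a median of -1.55, and from late to dry seed 2 rose and 18 fell, with a median of -3.38. The classes hold few genes at either end, and the differences between classes were not tested.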

How the data were processed

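The authors deposited whole-number read counts per gene for 23491 genes, not normalized, in 1 table for the mid-stage tissues and another for the time course, per the file headers and values. Per the labels' protocols, RNA came from a hot-borate extraction and libraries from a stranded mRNA kit. Trimmomatic, STAR and DESeq2 are named in the submitters' processing notes; tool versions, the build and annotation, how reads were counted and whether by strand were not given in the sources used here. Normalized tables of the same libraries were not used. Near-identical gene copies may share reads, which makes levels of such genes uncertain, as it does for genes that overlap on opposite strands.

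Counts were tested with edgeR 4.0.16 in R 4.3.3 (TMM, filterByExpr, estimateDisp, glmQLFit, glmQLFTest; all 4 groups of a table in 1 fit), with Benjamini-Hochberg adjustment over all genes of a comparison and a threshold of 0.05. The filter kept 18499 of 23491 genes in the tissue table. SEs are the log2 difference divided by the square root of F. The fit was tested on simulated data, counts drawn with known fold changes. No library looked like a copy of another in its group (chi-square over degrees of freedom of at least 32.8 in whole seed and 16.2 in cotyledon), so none were merged. This does not show that libraries had separate biological sources. Library measures used exact permutation tests. Alternatives were DESeq2 1.42.0, its size factors, upper-quartile scaling, no filter, a replicate block, only the 2 groups, and left-out libraries.

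Named genes were the 2 largest rises and 2 largest falls under the limits given in the text, the most counted gene of each group, and genes outside all parts. The planned lists of wax ester, storage protein and cell type genes need names and were not used. Members, lists and rules were chosen with earlier results of these data known. The number of counts limits precision for low genes, and plots were drawn with matplotlib 3.10.9.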

Additional observations from a re-analysis of the deposited data

Results flagged for a closer look

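Of 54 sets of 5 library values examined, 2 had a value far from the others. The critical value used is one that chance passes in about 1 in 20 sets of normally distributed values, which counts near 0 are not. Both concern Sc02g0004830: whole-seed library 4 stood at 3.38 CPM where the other whole-seed libraries stood at 0.152 to 0.682 CPM, and seed coat library 2 stood at 0.0435 CPM, which is 1 count where the other coat libraries had 0. Whole-seed library 4 also had the highest median level of cotyledon-preferred genes, 54.0% of cotyledon. The cause was not tested.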

How the results depend on the processing

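Counts of genes higher and lower kept within 1.5 times of the values given under DESeq2's Wald test (3119 and 3669), its size factors, upper-quartile scaling, no filter and a fit of whole seed and cotyledon alone (2550 and 2545), but which of the 2 counts was larger turned, for example with no filter (3000 and 2837). No direction of a named gene turned, which was hardly possible because whole-seed and cotyledon libraries did not overlap in any of them. The coat-over-axis and axis-over-coat lists were made anew from each fit, so the numbers below come from lists that may differ in size. Leaving out single libraries gave 4779 to 7650 genes called, 690 to 976 coat-over-axis genes higher and 0 to 6 lower (median log2 difference 1.11 to 1.50), 29 to 66 axis-over-coat genes higher (median -0.97 to -0.68), 0 to 1 gene above and 2 to 4 below all parts, and a difference of 298 to 442 genes detected.

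Replicate numbers are shared by the groups, and same-numbered whole-seed and cotyledon libraries deviated together at r of 0.015, -0.093, 0.200, 0.157 and 0.160, with 1 of 5 whole-seed libraries correlating best with its own number. As r was not over 0.1 in every pair, the libraries were not treated as pairs; whether they came from the same seeds is not known. With the replicate number as a block, 5993 genes were called, 3012 higher and 2981 lower.

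Coat-over-axis genes called lower numbered 8 with DESeq2's Wald test and 1 with no filter. Genes above all parts numbered 0 with DESeq2 size factors, upper-quartile scaling or a 2-fold minimum, and genes below all parts numbered 10 with overlap allowed and 0 at 2-fold. With lists at 2-fold, 1659 of 3122 coat-over-axis genes were higher and 32 lower (median 0.77). Of 3628 axis-over-coat genes, 76 were higher and 1334 lower (median -0.60). Among all genes tested, 16.3% were higher and 16.9% lower. Whole seed stood at 67.9% of coat in coat-preferred genes. The lists at 2-fold are longer by construction. Without cotyledon libraries 1 and 5, 2038 and 1516 genes were higher and lower at 2-fold, 9 coat-over-axis genes were lower (median of the list 1.85; axis-over-coat -1.06), 0 genes were above and 4 below all parts, Sc20g0004780 no longer passed (0.78, edgeR adjusted p = 0.0570), and from mid to late seed 984 genes higher in whole seed rose and 1220 lower ones fell. Restricting the time course to genes at least 2-fold apart leaves fewer genes by construction. Of 1185 measured that were higher in whole seed, 127 (10.7%) rose and 594 (50.1%) fell from early to mid seed. From mid to late seed 150 (12.7%) rose and 574 (48.4%) fell, and from late to dry seed 164 (13.8%) and 861 (72.7%). Of 871 measured that were lower, 550 (63.1%) rose and 51 (5.86%) fell, then 434 (49.8%) and 149 (17.1%), then 291 (33.4%) and 423 (48.6%). All genes rose and fell in 26% and 23.6%, 27.3% and 29.8%, and 36.8% and 43.3% at these steps. The call on genes detected was lost without cotyledon library 2, 3, 4 or 5. The causes of the other moves were not tested.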
